A study of Mus musculus with 9 samples.

Results

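Primary tumours of the mouse mammary carcinoma lines 4T1 and 66cl4 were compared across the whole array, with 3 arrays of 4T1 tumours set against 3 arrays of 66cl4 tumours. These 6 arrays were chosen by the line named in the sample title, out of 9 arrays in all, and the other 3 came from tumours of the line 67NR. Every tumour grew in a female BALB/c mouse, 7 to 9 weeks old, after 1000000 viable cells had been placed in a mammary gland, and was taken on day 15. The cells of all 3 lines carried the construct labelled CMVLUC, so the compared groups shared it. RNA came from the tumour area of laser-captured sections, with 1 mouse per array and 3 mice per line. Each line stands for 1 tumour cell line in 1 host strain, and the captured area can hold host cells beside tumour cells.

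The lines descend from 1 spontaneous mammary tumour. Both 4T1 and 66cl4 colonise the lung from the mammary gland, while 67NR stays at the primary site, so the comparison sets 2 metastatic lines side by side. Epithelial cells are held together by adherens junctions built on E-cadherin, by tight junctions of claudins and by desmosomes tied to keratin filaments. In the epithelial-mesenchymal transition, transcription factors of the Snail, Zeb and Twist families repress these genes, and cells take up mesenchymal features. Carcinoma lines can hold either state or a mixture, and a tumour also holds macrophages, lymphocytes, vessels and fibroblasts that shape its expression profile.

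Of 13410 genes tested, 5538 (41.3%) differed between the 2 tumours at an adjusted p under 0.05, the threshold used for every call below. Of all genes tested, 17.9% were called higher in 4T1 and 23.4% higher in 66cl4 tumours. Each list count below stands beside these shares. The median log2 difference, 4T1 minus 66cl4 throughout, was -0.03, with quartiles at -0.35 and 0.25. The larger differences lay more often on the 4T1 side, with 177 genes at least 8-fold higher there and 86 at least 8-fold higher in 66cl4 tumours. The values of the lines did not overlap for 50.9% of genes, 21.7% with 4T1 higher and 29.2% with 66cl4 higher. Across genes, arrays correlated at 0.972 to 0.979 within 4T1, 0.984 to 0.989 within 66cl4 and 0.867 to 0.881 between them, and genes are not independent replicates. The hybridization controls spiked into each array averaged a log2 signal of 10.30, 10.72 and 10.37 on the 4T1 arrays and 10.64, 10.84 and 11.10 on the 66cl4 arrays, so they were mostly lower on the 4T1 arrays. The part of this in the counts below was not tested beyond a fit with it as a covariate, which called 3870 genes.

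**Figure D1:**
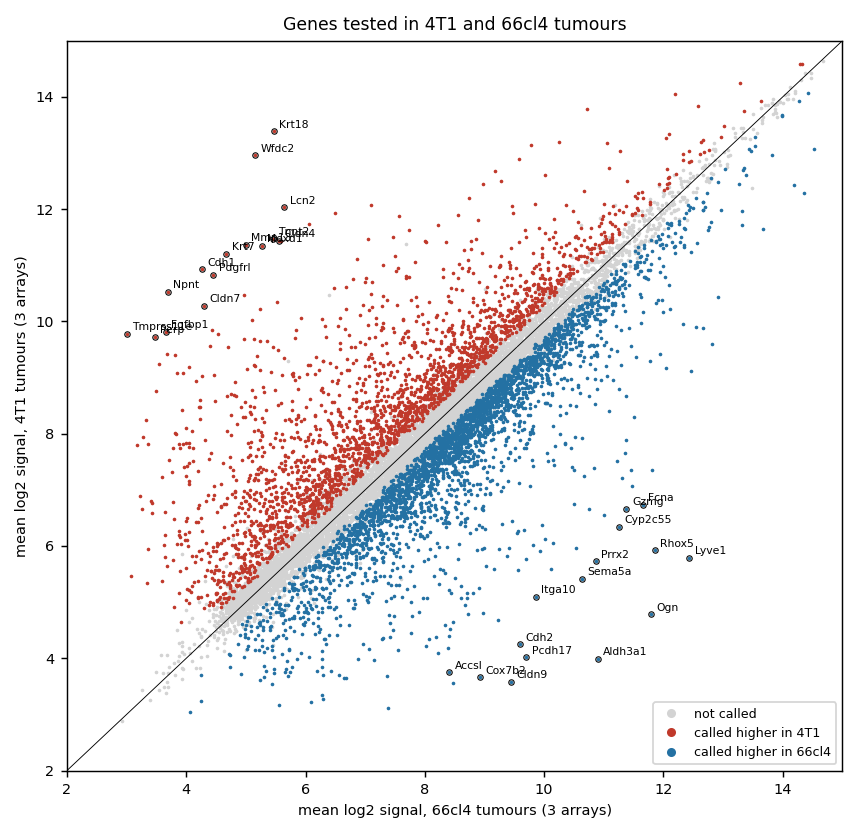
Each point is 1 of the 13410 genes tested, at its mean log2 signal over the 3 66cl4 arrays (horizontal axis) and the 3 4T1 arrays (vertical axis), and the line marks equal means. Red genes were called higher in 4T1 and blue genes higher in 66cl4, and the circled names are 15 genes from each extreme of the log2 difference, led by Krt18 at 7.92 and Ogn at -7.01.

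Both lines are carcinomas, and the keratins of simple epithelia were read first. Such genes describe the tumours and cannot tell whether the 2 line labels are right. Krt8 and Krt18 encode the partner keratins that pair into the filaments of simple epithelia. Krt8 was at a log2 signal of 13.47, 13.29 and 13.69 in the 4T1 arrays and at 13.08, 13.17 and 12.78 in the 66cl4 arrays. Krt18 was at 13.50, 13.31 and 13.34 in the 4T1 arrays and at 5.50, 5.00 and 5.91 in the 66cl4 arrays. The first keratin was thus near the top of the signal range in all 6 tumours, and its partner was high in the 3 4T1 tumours alone. Krt18 had a log2 difference of 7.92 ± 0.28 (± SE here and below, 3 arrays a line, adjusted p = 6.34e-08), the highest value of any gene tested. Krt8 differed by 0.47 ± 0.15 (adjusted p = 0.0303), and this call was lost in 4 of 9 fits that each left out 1 array (adjusted p from 0.0246 to 0.11). It was lost without 4T1 replicate 1 (0.48), without 4T1 replicate 3 (0.37), without 66cl4 replicate 1 (0.51) and without 66cl4 replicate 3 (0.36). Of the 9 fits, here and below, 3 left out a 67NR array, which changes the estimated spread but not the difference. In 67NR tumours Krt8 was at 6.74 ± 0.18 and Krt18 at 4.77 ± 0.54 (SD, n = 3, with Krt18 above background on 1 of 3 arrays).

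E-cadherin lay on the same side as Krt18. Cdh1, the gene of E-cadherin, was at 10.91, 10.76 and 11.11 in 4T1 and at 4.45, 4.38 and 4.00 in 66cl4 tumours. None of the 66cl4 values lay above background, taken as the highest of 27 bacterial control probe sets on the same array, so the difference is a bound: Cdh1 was at least 64.9-fold higher in 4T1 tumours (adjusted p = 9.87e-09). Epcam, an adhesion protein of epithelia, was higher by 1.22 ± 0.19 (adjusted p = 0.000814) on the probe set with the brightest mean. Its other probe set was at 12.37, 11.76 and 12.20 in 4T1 and at 4.77, 4.37 and 5.34 in 66cl4 tumours, higher by 7.28 ± 0.23 (adjusted p = 4.05e-08), and 1 of the 3 66cl4 values lay above background. The 2 Epcam probe sets thus shared the direction and differed widely in size.

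Of 26 adherens and tight junction genes tested, 16 were higher in 4T1 and 3 higher in 66cl4, with a median log2 difference of 0.72 (0.60 with genes not above background set at their bound) against -0.03 over all genes. The claudins seal the tight junction. Cldn7 was at 10.81, 10.20 and 9.83 in 4T1 and at 4.22, 4.32 and 4.33 in 66cl4, at least 41.4-fold higher. Cldn4 was higher by 5.89 ± 0.30, and Cldn3 by 3.49 ± 0.12. Marveld2, the tricellulin gene of junctions where 3 cells meet, was at least 3.71-fold higher and Cldn23 at least 3.36-fold higher, and both were below background in all 66cl4 tumours. The 3 members called higher in 66cl4, named after their values were seen, were the scaffold gene Tjp1 (-0.95), the claudin gene Cldn12 (-0.44) and the p120 catenin gene Ctnnd1 (-0.33). The tight junction scaffold genes Cgn and Cgnl1, also chosen after their values were seen, did not pass the test. Cgn was at 7.98, 7.59 and 7.35 in 4T1 and at 7.25, 7.54 and 7.28 in 66cl4 tumours, with overlapping values, and at 5.03 ± 0.42 (SD, n = 3) in 67NR tumours. Cgnl1 differed by 0.22 ± 0.16 (adjusted p = 0.31).

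Desmosomes and hemidesmosomes, which anchor keratin filaments at cell contacts and at the basement membrane, gave 9 of 16 tested genes higher in 4T1 and 0 higher in 66cl4, with a median of 1.07. Perp, a tetraspan membrane protein of desmosomes, was at 9.99, 9.38 and 9.82 in 4T1 and at 3.69, 3.44 and 3.29 in 66cl4 tumours. The desmoplakin gene Dsp was at 9.46, 8.87 and 9.44 in 4T1 and at 3.63, 3.39 and 3.59 in 66cl4 tumours. All 66cl4 values of both lay below background, and the bounds were 28.3-fold for Perp and 20.3-fold for Dsp. The desmosomal cadherin gene Dsg2 was at least 22.6-fold higher, and 2 chains of an epithelial laminin were on the same side, Lama3 at least 18.1-fold and Lamb3 at least 19.4-fold higher. Pkp3, a plakophilin, was higher by 2.22 ± 0.17. Its relative Pkp2, chosen after its values were seen, was at 8.05, 8.16 and 7.90 in 4T1 and at 7.91, 8.18 and 8.04 in 66cl4 tumours. Those values were interleaved, the difference was -0.01 ± 0.20 (adjusted p = 0.98), and in 67NR tumours Pkp2 was not above background. The periplakin gene Ppl, chosen in the same way, differed by 0.21 ± 0.21 (adjusted p = 0.475).

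Among 10 keratins tested, 6 were higher in 4T1 and 0 higher in 66cl4, with a median of 0.40. Krt7, of simple and glandular epithelia, was at 11.57, 11.18 and 10.85 in 4T1 and not above background in 66cl4 tumours, at least 78.4-fold higher. Krt14, of basal and myoepithelial cells, was higher by 3.89 ± 0.21 and Krt19 by 3.57 ± 0.42, with 2 of 3 66cl4 arrays above background for each. Krt6a differed by 0.33 ± 0.11 (adjusted p = 0.042), and its call was lost in 7 of 9 fits that left out 1 array (values from 0.26 to 0.40).

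Of 18 epithelial surface and secretory genes tested, 17 were higher in 4T1 and 0 higher in 66cl4, with a median of 2.91. This share was the highest of all lists, but the lists were written with earlier results of these data known. Its members Wfdc2, Npnt, Tmprss11e and Lcn2 are among the 15 highest genes of this comparison, so the rank is not separate evidence. Wfdc2, a small secreted protein with whey acidic protein domains, was at 13.02, 12.99 and 12.89 in 4T1 and at 5.27, 5.25 and 4.92 in 66cl4 tumours, higher by 7.82 ± 0.16 (adjusted p = 3.61e-09). Npnt, the matrix protein nephronectin, was at least 49.2-fold higher, and its other 4 probe sets differed by 1.97 to 6.03. The membrane serine protease gene Tmprss11e was at least 29.4-fold higher, with 66cl4 values of 2.99, 3.03 and 2.97. Another membrane protease gene, St14, encoding matriptase, was higher by 4.42 ± 0.16. Spint1, encoding the inhibitor of matriptase, was higher by 4.14 ± 0.19, so protease and inhibitor were both on the 4T1 side. Plet1, a surface protein of epithelial progenitors, was at 9.76, 8.24 and 8.79 in 4T1 and not above background in 66cl4 tumours, at least 16.3-fold higher, and was at 10.84 ± 0.45 (SD, n = 3) in 67NR tumours, where Cdh1 was not above background either. Lcn2, the iron-siderophore carrier lipocalin 2, was at 11.91, 12.01 and 12.17 in 4T1 and at 6.39, 5.49 and 5.04 in 66cl4 tumours. Cd24a, a surface glycoprotein chosen after its values were seen, was at 12.26, 11.85 and 11.65 in 4T1 and at 11.12, 10.85 and 11.59 in 66cl4 tumours. It was bright in all 6 tumours and higher in 4T1 by 0.73 ± 0.25 (adjusted p = 0.0403). In 67NR tumours it stood at 5.97 ± 0.41 (SD, n = 3), below every value of both lines.

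**Figure D2:**
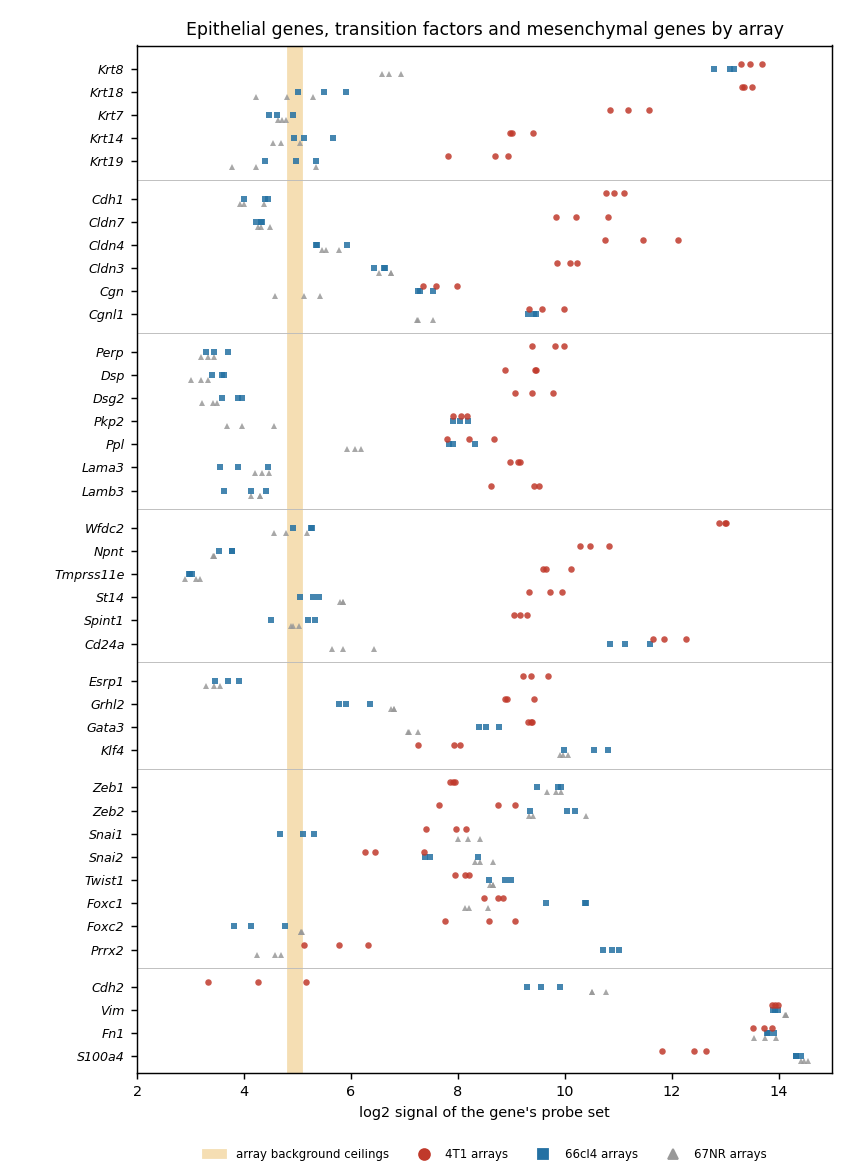
Log2 signal (horizontal axis) of keratin, junction, desmosome, surface, regulator, transition factor and mesenchymal genes (rows, in blocks from top to bottom) on each of the 9 arrays, with 1 point per array, and the band marks the background ceilings of the arrays, 4.83 to 5.08. Krt8, Cgn, Cgnl1, Pkp2, Ppl and Cd24a lie close together in 4T1 and 66cl4 tumours, although Krt8 and Cd24a were called higher in 4T1. Krt18, Cdh1, Cldn7, Perp, Dsp and Wfdc2 lie high in 4T1 tumours only.

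Regulators of the epithelial state gave 8 of 10 tested members higher in 4T1 and 1 higher in 66cl4, with a median of 1.09 (0.91 at bounds). Esrp1, a splicing factor of epithelial exons, was at 9.68, 9.37 and 9.22 in 4T1 and at 3.90, 3.46 and 3.70 in 66cl4 tumours, at least 22.8-fold higher. The transcription factor gene Grhl2 was at 9.42, 8.87 and 8.92 against 6.36, 5.90 and 5.78, higher by 3.06 ± 0.18. Both genes separated the lines without overlap. The RNA-binding protein gene Rbm47 (1.19), the AP-2 factor gene Tfap2a (1.04) and the luminal regulator gene Gata3 (0.78) were higher by less. Klf4, a zinc finger factor of epithelial differentiation, ran the other way at 7.25, 8.03 and 7.93 in 4T1 and 10.81, 10.55 and 9.99 in 66cl4 tumours, a difference of -2.71 ± 0.24 (adjusted p = 1.98e-05).

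The E-box CAGGTG (reverse complement CACCTG), which factors of the Snail and Zeb families bind, was searched on both strands in the 250 bases before each RefSeq gene start (build GRCm38.p6). Of 56 epithelial genes called higher in 4T1, 34 have a promoter entry. The others, Cdh1 among them, were not searched. The motif was found in 22 of these 34 genes, and in 5 of the 14 epithelial genes with an entry that were not called higher. Over all genes with an entry the share was 19.4%, over the genes tested here 18.9%, and over all windows of that length 17.2%. Here 4 of the 15 highest genes and Epcam are shown to place the motif against their starts, written 5′ to 3′ on the strand of the gene with the motif in capitals.
Krt18: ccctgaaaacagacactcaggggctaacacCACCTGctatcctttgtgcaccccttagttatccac
Krt7: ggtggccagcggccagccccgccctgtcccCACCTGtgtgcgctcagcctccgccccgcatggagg
Epcam: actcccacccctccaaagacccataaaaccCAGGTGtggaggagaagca
Wfdc2: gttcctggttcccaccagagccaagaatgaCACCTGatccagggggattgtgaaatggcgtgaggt
Cldn4: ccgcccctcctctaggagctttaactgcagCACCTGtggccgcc
The windows are chr15:102027972-102028037 on the plus strand for Krt18, chr15:101412329-101412394 (plus) for Krt7, chr17:87635930-87635978 (plus) for Epcam, chr2:164562535-164562600 (plus) for Wfdc2 and chr5:134946935-134946978 (minus) for Cldn4. The motif began 214 bases before the start in Krt18, 44 in Krt7, 19 in Epcam, 150 in Wfdc2 and 14 in Cldn4. Epcam held another match from 187 to 182 bases before its start. Krt8, which was bright in both lines, held a match too, from 111 to 106 bases before its start. A match describes letters in the window and shows no binding.

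Transcription factors of the transition did not move as a block. Of 18 tested, 4 were higher in 4T1 and 7 higher in 66cl4, with a median of -0.37. Zeb1, which represses E-cadherin, was at 7.85, 7.94 and 7.90 in 4T1 and at 9.87, 9.47 and 9.92 in 66cl4 tumours. The groups did not overlap, and the difference was -1.85 ± 0.13 (adjusted p = 5.52e-06). Its relative Zeb2 differed by -1.37 ± 0.40 (adjusted p = 0.0205), a call lost in 3 of 9 fits that left out 1 array (without 4T1 replicate 1, 66cl4 replicate 2 or 66cl4 replicate 3, values from -1.27 to -0.95). The Slug gene Snai2 differed by -1.05 ± 0.32 (adjusted p = 0.0246), and that call was lost without 4T1 replicate 1, 4T1 replicate 3 or 66cl4 replicate 3 (values from -0.93 to -0.74). Twist1 was lower in 4T1 by a smaller step, 8.20, 8.13 and 7.95 against 8.87, 8.57 and 8.99, a difference of -0.72 ± 0.13 (adjusted p = 0.00138).

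The Snail gene Snai1, the other classic repressor of E-cadherin, had the opposite direction. Snai1 was at 7.97, 8.14 and 7.40 in 4T1 and at 5.10, 5.31 and 4.67 in 66cl4 tumours, higher in the E-cadherin-positive tumours by 2.81 ± 0.22 (adjusted p = 9.53e-06). It passed the background on 2 of the 3 66cl4 arrays. The 2 forkhead genes of the list were split as well. Foxc2 was at 9.07, 8.58 and 7.76 in 4T1 and not above background in 66cl4 tumours, at least 11.8-fold higher, whereas Foxc1 was at 8.69 ± 0.19 in 4T1 and 10.13 ± 0.43 in 66cl4 tumours (SD, n = 3), a difference of -1.44 ± 0.21. The homeobox gene Prrx2 was at 5.11, 6.32 and 5.78 in 4T1 and at 11.02, 10.71 and 10.88 in 66cl4 tumours. Its difference of -5.14 ± 0.26 (adjusted p = 5.28e-07) was the most negative of the list, and it was not above background in 67NR tumours.

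N-cadherin ran opposite to E-cadherin. Cdh2, the gene of N-cadherin, was at 3.33, 5.16 and 4.26 in 4T1 and at 9.29, 9.56 and 9.91 in 66cl4 tumours, a difference of -5.33 ± 0.37 (adjusted p = 4.29e-06) with 1 of 3 4T1 arrays above background. On its other probe set Cdh2 was at least 14.2-fold lower in 4T1 tumours. The filament gene Vim was at 13.87, 13.92 and 13.98 in 4T1 and at 13.92, 13.89 and 13.99 in 66cl4 tumours, with interleaved values among the brightest on the array. Its 2 dimmer probe sets differed by -0.16 (adjusted p = 0.359) and -0.19 (adjusted p = 0.348). The fibronectin gene Fn1 differed by -0.13 ± 0.13 (adjusted p = 0.497) and, on its dimmer probe set, by -0.37 ± 0.26 (adjusted p = 0.32).

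Of 22 mesenchymal and cytoskeletal genes, 11 were higher in 4T1 and 6 higher in 66cl4, with a median of 0.31. Nt5e, encoding the surface nucleotidase CD73, was at 11.65, 11.93 and 11.65 in 4T1 and at 5.94, 7.02 and 5.19 in 66cl4 tumours. The matrix glycoprotein gene Tnc (tenascin C) was at 11.49, 12.66 and 12.06 against 7.54, 8.03 and 5.71. Neither gene had overlapping groups, and they differed by 5.69 ± 0.37 and 4.97 ± 0.51, the latter 4.28 without 66cl4 replicate 3. The smooth muscle gene Tagln was higher in 4T1 by 3.12 ± 0.37. On the 66cl4 side were the caveolin gene Cav1, at 8.68, 9.05 and 9.78 in 4T1 and 12.14, 11.94 and 12.08 in 66cl4 tumours, and S100a4, a calcium-binding protein of motile cells, at 12.29 ± 0.43 and 14.35 ± 0.05 (SD, n = 3). Cav1 differed by -2.88 ± 0.24 and S100a4 by -2.06 ± 0.18.

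More matrix genes were called higher in 4T1 than higher in 66cl4. Of 32 collagen and matrix glycoprotein genes, 14 were higher in 4T1 and 6 higher in 66cl4, with a median of 0.62. Over all genes the shares were 17.9% and 23.4%, so the 66cl4 count was not above the share over all genes. Col12a1, a fibril-associated collagen, was at 9.65, 10.89 and 10.33 in 4T1 and at 7.11, 7.98 and 5.83 in 66cl4 tumours. The fibrillar collagen gene Col1a1 was at 11.84, 13.42 and 12.54 against 9.70, 10.79 and 9.54. In both genes replicate 2 was the highest of its line. Their differences were 3.32 ± 0.50 and 2.59 ± 0.42, and those of Col6a3, Col16a1 and Col15a1 were 2.51, 1.80 and 1.77. Ogn, the small leucine-rich proteoglycan osteoglycin, was at 4.90, 4.66 and 4.79 in 4T1 and at 11.93, 10.97 and 12.47 in 66cl4 tumours. It was at least 113-fold lower in 4T1 tumours, at least 92.1-fold on its other probe set, and stood at 7.78 ± 0.35 (SD, n = 3) in 67NR tumours. Of 12 fibroblast markers tested beside these genes, 2 were higher in 4T1 and 3 higher in 66cl4. These counts were close to the shares over all genes, 17.9% and 23.4%. Several of these marker calls were not stable. Among 9 fits that each left out 1 array, Dpt (-1.06) lost its call in 7, Clec3b (-0.43) in 4 and Fap (1.21) in 3. Without 4T1 replicate 1, Clec3b was at -0.38 and Dpt at -0.86, both no longer called. The markers' mean log2 level ran from 7.39 to 8.17 over the 4T1 arrays and from 7.50 to 7.78 over the 66cl4 arrays. Their part in the matrix differences was not tested.

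Mmp13, a protease that cuts the matrix, was among the 15 genes furthest on the 4T1 side. This gene, the interstitial collagenase of rodents, was at 10.47, 12.24 and 11.39 in 4T1 and at 5.03, 5.88 and 4.07 in 66cl4 tumours, higher by 6.37 ± 0.58 (adjusted p = 2.38e-05). In 66cl4 it passed the background on 2 of 3 arrays. The stromelysin genes Mmp3 and Mmp10 were higher by 4.25 ± 0.42 and 4.10 ± 0.47, and the membrane metalloprotease gene Adam12 by 2.08 ± 0.23. Lox, the lysyl oxidase that cross-links collagen, was at 8.68, 11.04 and 10.44 in 4T1 and at 6.16, 7.13 and 5.51 in 66cl4 tumours, a difference of 3.79 ± 0.58 that was 4.47 without 4T1 replicate 1. Timp2, an inhibitor of metalloproteases, was lower in 4T1 by a small step, -0.80 ± 0.14. Of 29 genes of proteases, inhibitors and cross-linkers, 13 were higher in 4T1 and 4 higher in 66cl4, with a median of 0.74. The count of 13 depended on single arrays and on technical covariates. It was 8 without 4T1 replicate 2, 8 with the array file number as a covariate and 7 with the hybridization controls as a covariate.

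**Figure D3:**
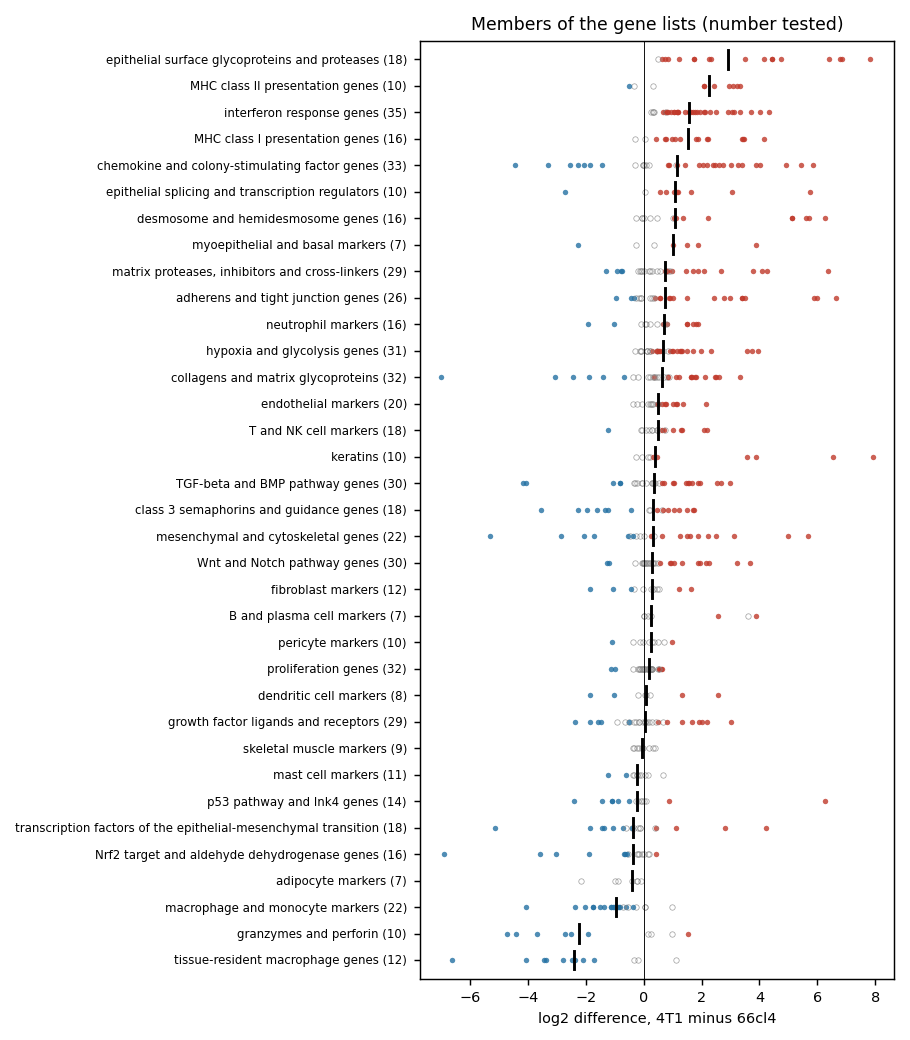
Log2 difference, 4T1 minus 66cl4 (horizontal axis), of each tested member of each gene list with at least 5 tested members (rows, with the number tested), where the black bar is the list's median. Filled red and blue points passed the test and open points did not. The medians run from -2.43 for tissue-resident macrophage genes to 2.91 for epithelial surface glycoproteins and proteases. The lists were written with earlier results of these data known.

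Cells short of oxygen stabilise hypoxia-inducible factors, which raise glycolytic enzymes, glucose transport and their own prolyl hydroxylases. Of 31 hypoxia and glycolysis genes, 19 were higher in 4T1 and 0 higher in 66cl4, with a median of 0.67. Egln3, a prolyl hydroxylase that is itself a target of these factors, was at 10.42, 10.70 and 10.98 in 4T1 and at 7.04, 7.07 and 7.25 in 66cl4 tumours. The aldolase gene Aldoc was at 9.84, 9.26 and 9.37 against 5.49, 5.81 and 5.33. Both separated the lines widely, by 3.58 ± 0.17 and 3.95 ± 0.22. Car12, a membrane carbonic anhydrase, was at least 7.27-fold higher, Ndrg1 was higher by 1.71 ± 0.22, the hexokinase gene Hk2 by 1.32 ± 0.19 and the collagen prolyl hydroxylase gene P4ha1 by 0.89 ± 0.14. Car9, another carbonic anhydrase of hypoxic cells and chosen after its values were seen, was at 9.98, 10.12 and 10.43 in 4T1 and at 10.21, 10.76 and 9.99 in 66cl4 tumours. Its values overlapped, and it stood at 5.42 ± 0.47 (SD, n = 3) in 67NR tumours.

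The core of the hypoxia response element, ACGTG (reverse complement CACGT), was found on either strand in the same 250-base windows of 13 of the 18 hypoxia genes higher in 4T1 that have an entry, and of 6 of the 11 not called higher. The share was 18.5% over all genes, 24.2% over the genes tested and 16.6% over all windows. Egln3 and Hk2 are shown because both were called and named above.
Egln3: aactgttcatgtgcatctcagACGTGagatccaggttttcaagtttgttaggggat
Hk2: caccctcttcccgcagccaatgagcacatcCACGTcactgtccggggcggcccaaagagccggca
The windows are chr12:54204069-54204124 (minus strand) for Egln3 and chr6:82774472-82774536 (minus strand) for Hk2, with the capitals beginning 229 and 52 bases before the start. Hk2 held a further match farther upstream in the window.

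Interferon response and antigen presentation genes were higher in 4T1 almost throughout. Interferons induce guanylate-binding proteins, immunity-related GTPases and antiviral enzymes, and interferon gamma in particular induces the immunoproteasome, the peptide transporter and the class II transactivator. Of 35 interferon response genes, 30 were higher in 4T1 and 0 higher in 66cl4, with a median of 1.56. Iigp1, an immunity-related GTPase, was at 11.73, 11.93 and 11.99 in 4T1 and at 7.56, 7.14 and 7.97 in 66cl4 tumours. The guanylate-binding protein gene Gbp3 was at 10.92, 11.03 and 11.07 against 7.14, 7.11 and 7.62. No 4T1 value of either fell near the 66cl4 range, and the differences were 4.33 ± 0.21 and 3.72 ± 0.16 (adjusted p = 3.54e-07 and 2.24e-07). Igtp, Gbp2 and Oasl2 were higher by 4.02, 3.34 and 2.92. Irf1, a transcription factor of the response, was at 11.48, 11.61 and 11.76 in 4T1 and at 9.71, 9.57 and 9.77 in 66cl4 tumours, higher by 1.93 ± 0.12. In 67NR tumours Iigp1 stood at 11.51 ± 0.26 and Irf1 at 10.66 ± 0.15 (SD, n = 3), above the 66cl4 values of the same genes.

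The interferon-stimulated response element was searched on both strands as GAAA, any 2 bases, GAAA, which reads TTTC, any 2 bases, TTTC on the reverse strand. Of 44 interferon response and class I genes called higher in 4T1, 34 have an entry, and the rest were not searched. The element was found in 12 of these 34 genes, and in 1 of the 6 genes with an entry that were not called higher. The share was 3.5% over all genes, 3.1% over the genes tested and 3.0% over all windows. Gbp2 and Igtp are shown since both were among the most changed members.
Gbp2: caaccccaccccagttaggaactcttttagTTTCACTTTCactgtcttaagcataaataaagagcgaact
Igtp: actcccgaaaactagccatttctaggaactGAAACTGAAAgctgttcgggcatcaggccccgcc
The windows are chr3:142620574-142620643 (plus strand) for Gbp2 and chr11:58199492-58199555 (plus strand) for Igtp, and the capitals begin 59 and 34 bases before the start. Matches overlapped one another in Oas1a, Bst2, Socs1, Irgm1 and Gbp3.

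Class I presentation begins with the immunoproteasome, which cuts proteins into peptides, and the Tap transporter, which carries them to the class I molecules. Of 16 class I presentation genes, 14 were higher in 4T1 and 0 higher in 66cl4, with a median of 1.53. Psmb9, an immunoproteasome subunit, was at 11.35, 11.51 and 11.45 in 4T1 and at 7.93, 8.02 and 8.07 in 66cl4 tumours. The transporter gene Tap1 was at 10.20, 10.63 and 10.62 against 7.08, 7.08 and 7.10. Replicates of a line lay close together in both genes, and the differences were 3.43 ± 0.12 and 3.39 ± 0.16. The other immunoproteasome genes Psmb8 and Psmb10 were higher by 3.45 and 1.82, and Tap2 by 2.18. Nlrc5, the transactivator of class I genes, was at 10.25, 9.83 and 10.09 in 4T1 and at 5.73, 5.87 and 6.17 in 66cl4 tumours, higher by 4.14 ± 0.20 (adjusted p = 4.23e-07). The light chain gene B2m, chosen after its values were seen, was at 14.24 ± 0.05 and 13.28 ± 0.04 (SD, n = 3) and higher by 0.97 ± 0.09.

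Class II molecules present peptides to CD4 T cells, mostly on dendritic cells, macrophages and B cells. Of 10 class II presentation genes, 7 were higher in 4T1 and 1 higher in 66cl4, with a median of 2.27. The beta chain gene H2-Ab1 was at 12.61, 12.62 and 12.32 in 4T1 and at 8.74, 8.89 and 10.19 in 66cl4 tumours. H2-Eb1 was at 12.81, 13.14 and 12.72 against 9.13, 9.10 and 10.49. In both genes 66cl4 replicate 3 was the highest of its line and still below every 4T1 value. They differed by 3.24 ± 0.34 and 3.32 ± 0.34, H2-Aa by 2.94, the peptide exchange gene H2-DMa by 2.44 and H2-Oa by 2.09. Ciita, the class II transactivator, was higher by 2.07 ± 0.21 with 2 of 3 66cl4 arrays above background. Over the class II list the mean log2 level ran from 11.17 to 11.46 in 4T1, from 9.17 to 9.88 in 66cl4 and from 10.94 to 11.27 in 67NR arrays. Among cell types that carry class II, macrophage and monocyte markers were higher in 66cl4, as given below. Of 8 dendritic cell markers 2 were higher in 4T1 and 2 higher in 66cl4, beside 17.9% and 23.4% of all genes. Those higher in 4T1 were Itgax (2.55 ± 0.33) and Batf3 (1.33 ± 0.31), and those higher in 66cl4 were Cd83 (-1.85) and Ccr7 (-1.04). Their part in the class II difference was not tested.

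**Figure D4:**
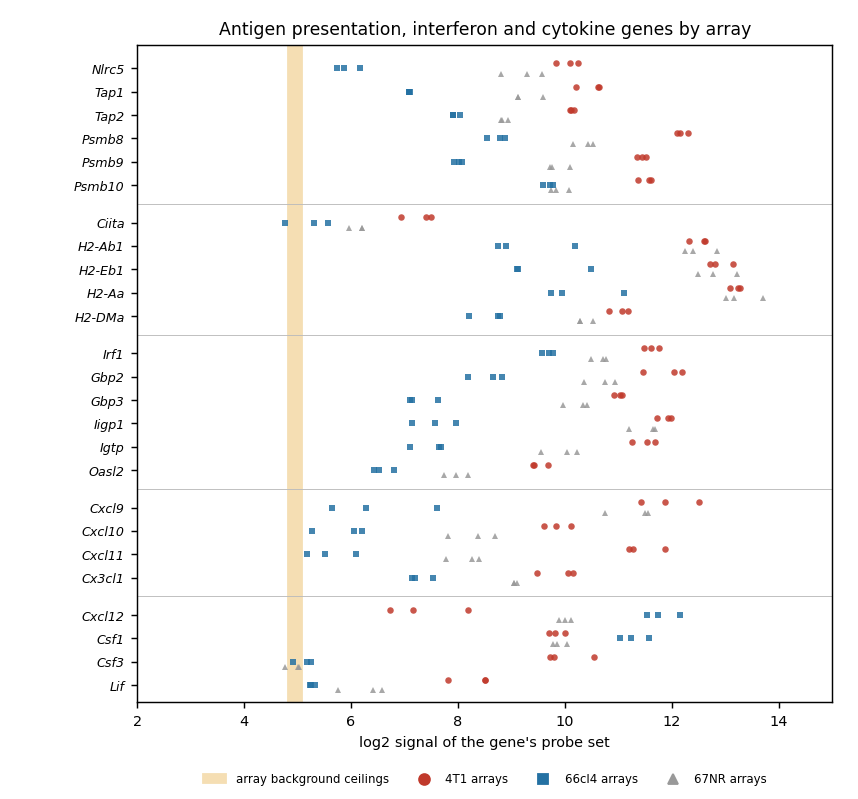
Log2 signal (horizontal axis) on each of the 9 arrays of class I presentation genes, class II genes, interferon response genes, chemokines of the Cxcr3 and Cx3cr1 receptors, and 4 cytokine genes (rows, in blocks from top to bottom), with 1 point per array and the background ceilings as a band. In the first 4 blocks every 4T1 value lies above every 66cl4 value, while Cxcl12 and Csf1 lie higher in 66cl4 tumours.

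More chemokine genes were called higher in 4T1 than higher in 66cl4. Of 33 chemokine and colony-stimulating factor genes, 19 were higher in 4T1 and 7 higher in 66cl4, with a median of 1.16 (1.10 at bounds). Over all genes the shares were 17.9% and 23.4%, so the 66cl4 count was close to the share over all genes. Cxcl11 and Cxcl10, with Cxcl9 the ligands of the T cell receptor Cxcr3, were on the 4T1 side. Cxcl11 was at 11.19, 11.88 and 11.27 in 4T1 and at 6.09, 5.18 and 5.51 in 66cl4 tumours, higher by 5.85 ± 0.27. Cxcl10 was higher by 4.01 ± 0.28 and Cxcl9, chosen after its values were seen, by 5.43 ± 0.46. The membrane-bound chemokine gene Cx3cl1 was higher by 2.61 ± 0.18 and the cytokine gene Lif by 3.01 ± 0.23. Csf3, encoding the granulocyte growth factor G-CSF, was at 9.72, 10.55 and 9.79 in 4T1 and at 5.25, 5.17 and 4.92 in 66cl4 tumours, higher by 4.91 ± 0.21 (adjusted p = 1.67e-07). The 66cl4 values lay at the background, with 2 of 3 arrays above it.

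Cxcl12, the ligand of Cxcr4, was the chemokine with the most negative difference. It was at 6.73, 8.19 and 7.15 in 4T1 and at 11.74, 11.53 and 12.16 in 66cl4 tumours, lower in 4T1 by -4.46 ± 0.32 (adjusted p = 5.02e-06), and at 10.00 ± 0.11 (SD, n = 3) in 67NR tumours. Csf1, the growth factor of macrophages and chosen after its values were seen, was at 10.00, 9.71 and 9.82 in 4T1 and at 11.24, 11.58 and 11.03 in 66cl4 tumours, a difference of -1.44 ± 0.15 (adjusted p = 6.28e-05). Csf1 and Csf3 thus lay on opposite sides, while the colony-stimulating factor gene Csf2 was tested too and is not described here.

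Macrophage genes were higher in 66cl4 tumours. Of 22 macrophage and monocyte markers, 16 were higher in 66cl4 and 0 higher in 4T1, with a median of -0.95. Cd68, a lysosomal protein of macrophages, was at 9.24, 9.51 and 9.43 in 4T1 and at 10.80, 10.83 and 11.05 in 66cl4 tumours. The lysozyme gene Lyz2 was at 12.64, 12.81 and 11.84 against 14.10, 14.27 and 14.20. Neither overlapped between the lines, and the differences were -1.50 ± 0.12 and -1.76 ± 0.22. The mannose receptor gene Mrc1 (-2.38), the lipopolysaccharide co-receptor gene Cd14 (-2.03), the integrin gene Itgam (-1.76) and the signalling adaptor gene Tyrobp (-1.02) were also lower in 4T1. In bulk tissue, fewer cells of a type and less RNA per cell cannot be told apart. The mean log2 level of the list ran from 9.61 to 9.70 in 4T1, from 10.50 to 10.89 in 66cl4 and from 10.53 to 10.62 in 67NR arrays.

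Genes of tissue-resident macrophages lay on the same side. Of 12 tested, 9 were higher in 66cl4 and 0 higher in 4T1, with a median of -2.43. Lyve1, a hyaluronan receptor of such macrophages and of lymphatic vessels, was at 5.26, 6.24 and 5.86 in 4T1 and at 12.31, 12.74 and 12.23 in 66cl4 tumours. Its difference was -6.64 ± 0.62 (adjusted p = 2.9e-05), and -6.08 on its other probe set. Cbr2, a carbonyl reductase, was at 6.54, 7.91 and 7.65 in 4T1 and at 11.12, 11.37 and 11.84 in 66cl4 tumours, and the folate receptor gene Folr2 was at 6.75, 7.24 and 8.18 against 10.40, 10.80 and 11.30. All 3 genes separated the lines. The scavenger receptor gene Stab1 differed by -2.09 ± 0.22, the bridging ligand gene Gas6 by -2.39 ± 0.28, and Timd4, a receptor for dying cells, was at least 1.41-fold lower in 4T1. Fcna, the lectin ficolin A, was at 6.33, 6.79 and 7.06 in 4T1 and at 11.55, 11.51 and 11.89 in 66cl4 tumours, lower in 4T1 by -4.92 ± 0.21. These lists and the colony-stimulating factor genes come from the same arrays, and whether they are linked was not tested.

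Granzymes, the serine proteases that cytotoxic cells release with the pore protein perforin, gave a second group high in 66cl4. Of 10 genes, 6 were higher in 66cl4 and 1 higher in 4T1, with a median of -2.24. Gzmg was at 6.76, 4.13 and 9.10 in 4T1 and at 12.74, 12.03 and 9.36 in 66cl4 tumours. Gzmd was at 7.57, 6.22 and 9.18 against 12.59, 11.91 and 9.54, and Gzmf at 7.18, 5.53 and 8.49 against 12.63, 12.21 and 9.59. The groups did not overlap, but in each of the 3 genes 4T1 replicate 3 was the highest of its line and 66cl4 replicate 3 the lowest, so both lines were uneven. The differences were -4.72 ± 1.14 for Gzmg, -3.69 ± 0.84 for Gzmd and -4.41 ± 0.84 for Gzmf (adjusted p = 0.00851, 0.00601 and 0.00232). For Gzmg they were -3.45 without 4T1 replicate 2, -5.94 without 4T1 replicate 3, -4.04 without 66cl4 replicate 1 and -5.72 without 66cl4 replicate 3. For Gzmd they were -2.97, -4.45, -3.07 and -4.60 in the same order. Gzmf stood at -3.64 without 4T1 replicate 2, -5.12 without 4T1 replicate 3 and -5.35 without 66cl4 replicate 3. These genes have near-identical sequences, so their probe sets may share signal and are not separate evidence.

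Gzmc differed by -2.73 ± 0.64, and by -3.44 without 66cl4 replicate 3. The perforin gene Prf1 was at 5.71, 6.56 and 7.03 in 4T1 and at 9.24, 8.90 and 6.98 in 66cl4 tumours, with 66cl4 replicate 3 inside the 4T1 range. Its difference of -1.94 ± 0.53 (adjusted p = 0.0145) was -2.64 without that array, and the call was lost without 66cl4 replicate 1 (-1.51) or 66cl4 replicate 2 (-1.68). Gzmb, the granzyme of activated T and NK cells and chosen after its values were seen, was at 9.23, 9.51 and 10.47 against 10.66, 9.79 and 8.26. Its values overlapped and differed by 0.16 ± 0.52 (adjusted p = 0.836). The single member higher in 4T1 was Gzmk, a granzyme of memory T cells, by 1.54 ± 0.36.

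T and NK cell markers were mainly uncalled or higher in 4T1. Of 18 T and NK cell markers, 7 were higher in 4T1 and 1 higher in 66cl4, with a median of 0.49. The T cell receptor chain gene Cd3g was at 6.87, 7.93 and 7.33 in 4T1 and at 5.23, 4.62 and 5.77 in 66cl4 tumours. Cd8b1, of the cytotoxic co-receptor, was at 5.98, 7.32 and 6.49 against 5.01, 3.91 and 4.66. Both were near background in 66cl4, with 2 and 1 of 3 arrays above it, and differed by 2.17 ± 0.37 and 2.07 ± 0.42. Cd3d, Cd8a and the granule gene Nkg7 were higher by 1.31, 1.29 and 1.00. The NK cell receptor gene Ncr1 was the member higher in 66cl4, at 5.26, 4.48 and 4.66 against 6.20, 5.91 and 6.01, a difference of -1.24 ± 0.20. The count of 7 fell to 4 with the hybridization controls as a covariate. This list's mean level ran from 6.32 to 6.80 in 4T1 and from 5.72 to 6.27 in 66cl4 arrays, and its part in the interferon and presentation differences was not tested.

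**Figure D5:**
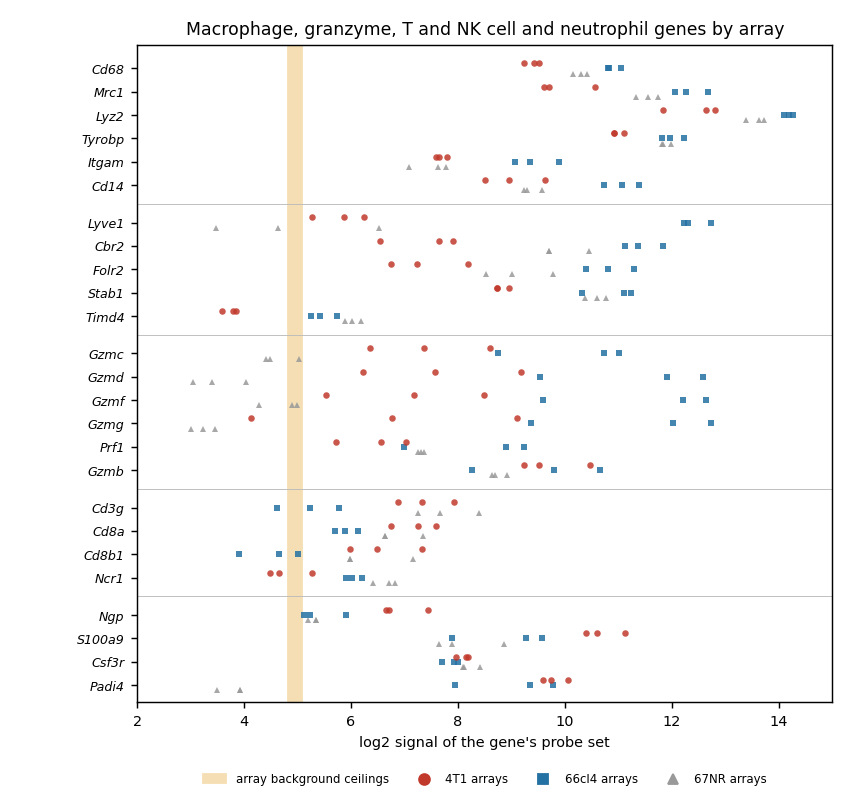
Log2 signal (horizontal axis) on each of the 9 arrays of macrophage, tissue-resident macrophage, granzyme and perforin, T and NK cell, and neutrophil genes (rows, in blocks from top to bottom), with 1 point per array and the background ceilings as a band. Macrophage genes lie to the right in 66cl4 tumours without overlap, while the granzyme points of both lines spread widely and the T cell genes lie to the right in 4T1 tumours.

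Neutrophil markers were split, beside the growth factor gene Csf3, which was 30.1-fold higher in 4T1. Of 16 tested, 7 were higher in 4T1 and 2 higher in 66cl4, beside 17.9% and 23.4% of all genes. The median was 0.69. S100a9, a subunit of calprotectin, was at 10.59, 10.39 and 11.12 in 4T1 and at 9.27, 9.57 and 7.89 in 66cl4 tumours, higher by 1.79 ± 0.44 (adjusted p = 0.00917). Its partner S100a8 was higher by 1.89 ± 0.55, a value of 1.22 without 66cl4 replicate 3, and lost its call without 4T1 replicate 1 (1.75) or 4T1 replicate 3 (1.83). The granule protein gene Ngp differed by 1.51 ± 0.24, the decoy receptor gene Il1r2 by 1.50 ± 0.33, and the C-type lectin gene Clec4d by -1.92 ± 0.49. The collagenase gene Mmp8 differed by 0.79 ± 0.23, with overlapping values and a call lost in 4 of 9 fits that left out 1 array. Csf3r, the receptor of G-CSF, and Padi4, the histone deiminase of neutrophils, both chosen after their values were seen, differed by 0.23 ± 0.13 (adjusted p = 0.194) and 0.78 ± 0.39 (adjusted p = 0.136). Padi4 was at 9.80 ± 0.24 in 4T1 and 9.02 ± 0.96 in 66cl4 tumours and not above background in 67NR tumours (SD, n = 3). The count of 7 was 3 without 4T1 replicate 3, 4 with the array file number and 3 with the hybridization controls as a covariate.

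Markers of further host cell types were counted in the same way. Endothelial markers gave 10 of 20 higher in 4T1 and 0 higher in 66cl4, with a median of 0.49. Eng, a co-receptor for TGF-beta on vessels, was at 9.62, 9.62 and 9.41 against 8.44, 8.45 and 8.36, higher by 1.14 ± 0.11. Flt1, a receptor of vascular endothelial growth factor, was higher by 2.14 ± 0.37, the sialomucin gene Emcn by 1.12 ± 0.15, Ecscr by 1.37 ± 0.21, Kdr by 0.73 ± 0.12 and Robo4 by 0.50 ± 0.10. Pecam1, chosen after its values were seen, differed by 0.32 ± 0.20 (adjusted p = 0.234). Of 11 mast cell markers 0 were higher in 4T1 and 2 higher in 66cl4, beside 17.9% and 23.4% of all genes. The 2 were Cpa3 (-1.24 ± 0.27) and Cma1 (-0.61 ± 0.20, a call lost in 4 of 9 fits that left out 1 array). Both protease genes stood far higher in 67NR tumours, at 11.76 ± 0.26 and 11.63 ± 0.27 (SD, n = 3), than in either line compared. Of 10 pericyte markers 1 was higher in each line, with Rgs5, the one higher in 66cl4, losing its call in 7 of 9 such fits, and of 7 adipocyte and 9 skeletal muscle markers 0 passed the threshold in limma.

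The plasma cell genes called were uneven among the 4T1 tumours. Of 7 B and plasma cell markers tested, 2 were higher in 4T1 and 0 higher in 66cl4, with a median of 0.26. Ighm, the heavy chain of immunoglobulin M, was at 11.95, 14.49 and 8.42 in 4T1 and at 8.42, 7.60 and 7.20 in 66cl4 tumours. Mzb1, a chaperone of antibody secretion, was at 7.56, 9.48 and 5.00 against 4.82, 4.83 and 4.73. In both genes 4T1 replicate 2 was high and 4T1 replicate 3 was at or close to the 66cl4 level. Ighm differed by 3.88 ± 1.25 (adjusted p = 0.0314), by 2.44 without 4T1 replicate 2 and by 5.48 without 4T1 replicate 3, and the call was lost in 5 of 9 fits that left out 1 array, the first of these among them. Mzb1, at least 5.42-fold higher, differed by 2.56 ± 0.86, by 1.49 without 4T1 replicate 2 and by 3.73 without 4T1 replicate 3, and its call was lost in 8 of the 9 fits that left out 1 array.

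TGF-beta, activins and bone morphogenetic proteins signal through Smad proteins, and their co-receptors and secreted antagonists tune the response. Of 30 genes of the pathway, 13 were higher in 4T1 and 5 higher in 66cl4, with a median of 0.36. Among the ligands, Bmp4 was at 4.54, 4.88 and 4.98 in 4T1 and at 8.86, 9.07 and 9.02 in 66cl4 tumours. No 4T1 array lay above background, and Bmp4 was at least 16.1-fold lower in 4T1 (adjusted p = 9.72e-08). Inhba and Inhbb, the activin beta chain genes, were higher in 4T1 by 2.99 ± 0.28 and 1.95 ± 0.23. The ligand gene Tgfb1, chosen after its values were seen, differed by 0.27 ± 0.17 (adjusted p = 0.246). Among the receptors, the co-receptor gene Tgfbr3 (betaglycan) was at 7.08, 7.25 and 7.31 in 4T1 and at 11.62, 11.07 and 11.21 in 66cl4 tumours, lower in 4T1 by -4.09 ± 0.15 (adjusted p = 7.38e-08). Skil, a Smad corepressor, and Bmp1, a procollagen protease despite its name, were higher by 1.56 ± 0.15 and 1.88 ± 0.20.

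Growth factor ligands and receptors gave 8 of 29 higher in 4T1 and 5 higher in 66cl4, with a median of 0.04, close to that of all genes. Among the platelet-derived growth factor genes named, the ligand genes Pdgfa, Pdgfb and Pdgfc were higher in 4T1 and the alpha receptor gene was lower. The beta receptor gene Pdgfrb was tested too and is not described here. Pdgfc was at 10.39, 10.41 and 10.04 in 4T1 and at 6.44, 6.79 and 8.61 in 66cl4 tumours, higher by 3.00 ± 0.46, or 3.67 without 66cl4 replicate 3. Pdgfb was higher by 2.02 ± 0.28 and Pdgfa, chosen after its values were seen, by 1.31 ± 0.27. The receptor gene Pdgfra was at 8.83, 9.38 and 8.72 against 11.21, 10.48 and 10.85, lower in 4T1 by -1.87 ± 0.22. The insulin-like growth factor binding protein genes Igfbp3 and Igfbp7 were higher in 4T1 by 2.17 ± 0.26 and 1.66 ± 0.19.

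Wnt and Notch genes gave 11 of 30 higher in 4T1 and 2 higher in 66cl4, with a median of 0.30. The Notch ligand gene Jag1 was at 9.05, 9.27 and 9.31 in 4T1 and at 7.13, 7.09 and 6.97 in 66cl4 tumours, higher by 2.15 ± 0.12 (adjusted p = 1.16e-06). The ligand gene Dll1 was higher by 1.94 ± 0.15 and the receptor gene Notch1 by 0.89 ± 0.12. On the Wnt side, the ligand gene Wnt10a was at 8.18, 9.65 and 9.45 against 5.52, 5.26 and 5.48, and the secreted antagonist gene Sfrp1 at 8.69, 9.45 and 8.92 against 5.90, 5.98 and 5.48. A ligand and an antagonist were thus both higher in 4T1, by 3.68 ± 0.31 and 3.23 ± 0.28, and the receptor gene Fzd7 by 1.31 ± 0.16.

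Guidance genes, which steer axons and vessels, gave 8 of 18 higher in 4T1 and 7 higher in 66cl4, with a median of 0.33. The secreted ligands named lay on the 66cl4 side. Sema3a was at 5.56, 5.77 and 6.13 in 4T1 and at 9.14, 9.14 and 9.87 in 66cl4 tumours, lower in 4T1 by -3.56 ± 0.23. Sema3e (-1.98 ± 0.19) and the netrin gene Ntn1 (-2.26 ± 0.25) were lower too, as was the membrane ligand gene Efnb2 (-1.24 ± 0.19). Receptors named lay on the other side, with the netrin receptor gene Unc5b higher by 1.69 ± 0.20 and the plexin gene Plxnb1 by 1.23 ± 0.16. These 6 genes are the called members with the smallest p, and the other called members are not named. A split of ligands and receptors over the whole list was not tested. Sema5a, a membrane semaphorin outside the list and among the 15 lowest genes, was at 5.19, 5.35 and 5.69 in 4T1 and at 10.58, 10.59 and 10.70 in 66cl4 tumours, lower in 4T1 by -5.21 ± 0.20.

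Several detoxifying enzymes were lower in 4T1. Of 16 Nrf2 target and aldehyde dehydrogenase genes, 7 were higher in 66cl4 and 1 higher in 4T1, with a median of -0.39. Aldh3a1, an aldehyde dehydrogenase, was at 3.91, 3.71 and 4.34 in 4T1 and at 10.80, 10.82 and 11.09 in 66cl4 tumours, at least 61.1-fold lower in 4T1 (adjusted p = 1.25e-08). The epoxide hydrolase gene Ephx1 was at 6.04, 6.64 and 6.44 against 9.94, 9.70 and 10.24, a difference of -3.59 ± 0.19. The glutathione transferase genes Gstm1 and Gsta4 differed by -3.03 ± 0.26 and -1.88 ± 0.22. The change did not cover the list, since Taldo1 and the glutathione synthesis gene Gclc differed by -0.65 and -0.68 and the classic target Nqo1, chosen after its values were seen, by -0.06 ± 0.19 (adjusted p = 0.845). The Gclc call was lost without 66cl4 replicate 2 (-0.49).

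Of 14 p53 pathway and Ink4 genes, 2 were higher in 4T1 and 6 higher in 66cl4, with a median of -0.24. Ccng1, a cyclin induced by p53, was at 8.98, 9.10 and 8.88 in 4T1 and at 10.22, 10.67 and 10.44 in 66cl4 tumours, lower in 4T1 by -1.46 ± 0.15. The receptor gene Eda2r was at least 2.33-fold lower and the pro-apoptotic gene Bbc3 lower by -1.09 ± 0.11. Zmat3 was lower by -0.88 ± 0.12 and the cell cycle inhibitor gene Cdkn1a by -1.09 ± 0.28. Perp, which belongs to this list as well as to the desmosome list, ran against them and was higher in 4T1.

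Few proliferation genes were called. Of 32 tested, 4 were higher in 4T1 and 2 higher in 66cl4, with a median of 0.17, beside 41.3% called among all genes. The topoisomerase gene Top2a and the kinase gene Cdk1 were higher in 4T1 by 0.64 ± 0.13 and 0.61 ± 0.15, while Birc5 (survivin) and the cyclin gene Ccne2 differed by -1.01 ± 0.18 and -1.14 ± 0.30. Kif23 and Ccnb2 each differed by 0.51, with calls lost in 3 and 6 of 9 fits that left out 1 array. Mki67 and Pcna, chosen after their values were seen, differed by -0.19 ± 0.16 (adjusted p = 0.382) and -0.02 ± 0.11 (adjusted p = 0.912).

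The remaining genes with the highest and lowest differences belong to no list. On the 4T1 side, Pdgfrl, a secreted receptor-like protein, was at 10.41, 11.29 and 10.80 in 4T1 and at 4.22, 5.15 and 3.99 in 66cl4 tumours, higher by 6.38 ± 0.30 with 1 of 3 66cl4 arrays above background. Fgfbp1, which releases fibroblast growth factors from the matrix, was at least 30.1-fold higher. Moxd1, a monooxygenase-like protein, was higher by 6.07 ± 0.15, and the cardiac troponin gene Tnnt2 by 6.03 ± 0.53. These 4 were named under a rule that required no overlap between the lines. Fgfbp1 was below background in both other lines.

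On the 66cl4 side, Rhox5, a homeobox gene of the X-linked reproductive cluster, was at 5.13, 5.82 and 6.80 in 4T1 and at 11.86, 11.85 and 11.84 in 66cl4 tumours, lower in 4T1 by -5.93 ± 0.32. Cldn9 was a claudin with the reverse direction of Cldn3, Cldn4 and Cldn7, at 3.63, 3.53 and 3.59 in 4T1 and at 9.53, 10.41 and 8.40 in 66cl4 tumours, at least 22.2-fold lower in 4T1. The protocadherin gene Pcdh17 was at least 26.5-fold lower, the cytochrome oxidase subunit gene Cox7b2 at least 15.4-fold and Accsl at least 10.8-fold. The cytochrome P450 gene Cyp2c55 was lower in 4T1 by -4.91 ± 0.36. Itga10, an integrin chain that binds collagen, was at 5.09, 4.86 and 5.31 in 4T1 and at 10.43, 9.63 and 9.51 in 66cl4 tumours, lower by -4.77 ± 0.27. In 67NR tumours Rhox5 (10.85), Cox7b2 (8.32) and Cyp2c55 (10.01) were also well above their 4T1 means of 5.92, 3.66 and 6.34, whereas Itga10 (5.12) was near its 4T1 mean of 5.09.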

How the data were processed

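The values the authors deposited are log2 signals of 45101 probe sets on 9 single-colour Affymetrix arrays. Their range (2.42 to 14.80) gave the scale, and their summarisation and normalization are not given in the sources used here. Array medians ran from 5.51 to 5.58. The arrays' 75th percentiles differed by at most 0.15, under the limit of 0.5 set for quantile normalization, so no scaling was added. The number of arrays limits the precision. Symbols came from the platform annotation, updated through RefSeq (GRCm38.p6): 34958 probe sets had 1 symbol, 932 several and 9211 none. Each gene was read from its brightest probe set, by the mean of all 9 arrays. Of 18194 genes, 13410 lay above their array's 40th percentile on at least 3 arrays and were tested. limma 3.58.1 in R 4.3.3 (lmFit, eBayes) fitted 3 line means to all 9 arrays, two-sided, with Benjamini-Hochberg adjustment over all genes tested (threshold 0.05), and it was tested on simulated data. An exact permutation test of 3 against 3 cannot go below 0.1. A gene not above the highest bacterial control on all 3 arrays of a line has a bound, the brighter mean against those controls, which is approximate. Described lists held 745 genes, 695 measured and 633 tested. Named are the 15 highest and 15 lowest called genes without overlap (gene models left out), up to 6 called members with the smallest p per list, and 12 genes of the transition. The members and lists were chosen with earlier results of these data known. Other names are marked as chosen after their values were seen. Replicates are separate mice, and their numbers did not pair the arrays. Alternatives covered the probe set, filter, normalization, covariates, threshold and each array left out.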

Additional observations from a re-analysis of the deposited data

How the results depend on the processing

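Over 20 alternatives the number of genes called was 3870 to 5556 except under a test against a 2-fold change, which called 751 (457 higher in 4T1, 294 higher in 66cl4). Leaving out 1 array gave 4614 to 5391 calls, and 4014 of the 5538 genes were called in all 9 such fits. In 3 of these fits the array left out was of 67NR. With the hybridization controls as a covariate, 2071 genes were called higher in 66cl4. The test against 2-fold left, as members higher in 4T1, 9 junction genes, 2 epithelial regulators, 4 mesenchymal genes, 4 collagen and matrix genes, 5 proteases, 3 hypoxia genes, 8 class I genes, 15 interferon genes, 5 TGF-beta and BMP genes, 3 growth factor genes, 4 Wnt and Notch genes, and 0 guidance, 0 endothelial, 0 neutrophil and 0 T and NK cell genes. As members higher in 66cl4 it left 2 transition factors, 1 granzyme, 1 p53 pathway gene, 4 Nrf2 genes and 4 macrophage markers. Protease members higher in 4T1 numbered 8 with the file number and 7 with the hybridization controls as a covariate, and 8 to 14 with 1 array left out. Neutrophil members numbered 4, 3 and 3 to 7 in the same settings, and T and NK cell members 4 with the hybridization controls. Of 3952 values of the 198 named genes that were called, 193 lost the call and 0 changed direction, and 174 of these genes kept their call in all but the 2-fold test. Vim, which was not called in any setting, changed sign with quantile normalization (0.07), with the hybridization controls and without 4T1 replicate 1 or 66cl4 replicate 3 (0.02 each). Median centring gave 40.3% of calls higher in 4T1 and quantile normalization 45.4%, against 43.3%. Same-numbered arrays deviated together by -0.04, 0.13 and -0.08 (correlation across genes), so the numbers were not taken as pairs. A fit with the replicate number as a block called 5180 genes, 5069 of them shared. Why counts moved with the covariates was not tested. Signals at the background limit what can be said of dim genes.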

Other observations

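Luminal and basal markers of the mammary gland, some of which are also keratins or epithelial regulators counted above, were called on both sides. Over all genes, 17.9% were called higher in 4T1 and 23.4% higher in 66cl4. Of 4 luminal and milk protein genes tested, 1 was higher in 4T1 and 2 higher in 66cl4. The milk protein gene Csn3 was at 5.46, 4.56 and 5.49 in 4T1 and at 8.80, 7.88 and 8.65 in 66cl4 tumours, lower in 4T1 by -3.27 ± 0.38 (SE, adjusted p = 0.000127), and stood at 10.70 ± 0.70 (SD, n = 3) in 67NR tumours. The oestrogen receptor gene Esr1 differed by -0.72 ± 0.16, and Foxa1, a factor of luminal cells, was at least 1.57-fold higher in 4T1.

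Of 7 myoepithelial and basal markers, 4 were higher in 4T1 and 1 higher in 66cl4, with a median of 1.00. Besides Krt14, the contractile genes Acta2 (1.86 ± 0.32) and Cnn1 (at least 2.17-fold) and the receptor gene Lgr6 (1.00 ± 0.20) were higher in 4T1. The myosin kinase gene Mylk was the exception, at 7.02, 6.38 and 6.75 in 4T1 and at 9.04, 8.92 and 8.96 in 66cl4 tumours, a difference of -2.26 ± 0.15 (adjusted p = 3e-06). Pericytes and smooth muscle share several of these genes, and their part in the differences was not tested.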
